A study of Homo sapiens with 2 samples.

Results

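Of the 120 gRNAs in this pool, 20 were non-targeting and have no intended target in the human genome. They share 4 feature names, Non-Targeting_gRNA1 to Non-Targeting_gRNA4, and were told apart by their identifiers, CTRL00018 to CTRL00698. A gRNA was called in a cell where it had more than 3 unique molecular identifiers (UMIs), and cells with exactly 1 called gRNA were kept. By this rule 696 of 5744 cells carried 1 non-targeting gRNA and no other (12.1%, 95% Clopper-Pearson interval 11.3 to 13.0%), and the cells that share such a gRNA form a guide group. The question was which genes differ between guide groups whose gRNAs were designed to perturb nothing, and in how many cells.

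The study profiled A549, a human lung adenocarcinoma line, by CROP-seq, in which the gRNA is read from a polyadenylated transcript of the lentiviral vector next to the cell's own transcripts. All cells, those with a non-targeting gRNA included, carry Cas9 under a doxycycline-inducible promoter. They received the gRNA pool in the CROPseq Guide-Puro vector (multiplicity of infection 0.3), were kept in puromycin for 10 to 14 days, were given doxycycline for 2 days and grew for 5 more days (the series text names tamoxifen, the protocols doxycycline). There was 1 pool of cells, so the guide groups differ in their gRNA and in the cells that happened to take it up, they are not replicates of a treatment, and no p-value is given. The values are UMI counts made by the authors with Cell Ranger, from a transcriptome library with a median of 34625 UMIs per cell (513 to 161719) and a gRNA library amplified from the same cDNA.

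Non-targeting gRNAs load Cas9 like any other gRNA of a screen but should lead it to no gene, so their cells serve as the unperturbed reference. In CROP-seq the gRNA identifies each cell after the fact, so that all gRNAs share 1 culture and 1 library. A549 cells grow as epithelium but also transcribe liver-type and secretory genes, several of which are switched on in only some of the cells. The spacer sequences are not printed here, since the deposited counts give the gRNAs by identifier only.

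The guide groups were of unequal size. CTRL00022 had 134 cells (19.3% of the 696) and CTRL00689 had 118 (17.0%), followed by CTRL00196 with 81, CTRL00405 with 76 and CTRL00616 with 51. These 5 groups were the only ones above 33 cells. CTRL00080 and CTRL00320 had 33 cells each, CTRL00484 had 30 and CTRL00545 had 27. CTRL00087 had 18 cells, CTRL00673 had 17, CTRL00696 had 16, CTRL00018 and CTRL00275 had 15 each and CTRL00637 had 13. Together these 15 groups held 677 cells. The other 5 gRNAs, with 19 cells in all, fell below the minimum of 10 cells: CTRL00640 had 8 cells, CTRL00688 had 4, CTRL00096 and CTRL00493 had 3 each and CTRL00698 had 1. The minimum thus lay between a group of 8 and a group of 13 cells, and the 5 small groups entered only as part of the cells against which the other groups were compared.

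Non-targeting gRNAs were seen at a low count in many more cells than they were called in. Of 4332 pairs of a non-targeting gRNA and a cell with at least 1 UMI, 3288 (75.9%) had exactly 1 UMI and 182 had 2. At the threshold itself, 16 pairs had 3 UMIs and 15 had 4, beside 782 pairs with 10 or more. The 846 called pairs held 91.4% of the non-targeting UMIs, with a range over the 15 groups from 89.6% (CTRL00275) to 93.2% (CTRL00673). In those groups there were between 4.23 (CTRL00673) and 6.51 (CTRL00320) cells with a UMI for each cell in which the gRNA was called, and the number of cells with 1 to 3 UMIs was lowest for CTRL00018 (55) and highest for CTRL00689 (685).

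In called cells the depth at which the gRNAs were read differed between groups. The median number of gRNA UMIs per cell was lowest in CTRL00405 (27.5) and highest in CTRL00637 (52), and the 15 groups had a median of 42. The transcriptome was read at a median of 25129 UMIs per cell in CTRL00484, the shallowest group, and 40842 in CTRL00637, the deepest. CTRL00022 held 16 cells with fewer than 10000 UMIs and CTRL00405 held 10, whereas the other groups held at most 5. The median share of UMIs from mitochondrial mRNAs ran from 11.05% (CTRL00696) to 12.96% (CTRL00320). All 5744 barcodes were distinct.

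The keratins that mark the line were found in nearly every cell. KRT18 had a UMI in all 696 cells and KRT8 in 695, and 693 cells (99.6%) had UMIs of at least 3 of 10 markers of lung epithelium and A549. The alveolar markers NKX2-1 (1 cell), SFTPC (2 cells) and SFTPB (0 cells) were at or near 0. At least 3 fibroblast markers were found in 17 cells, of immune and blood cells in 2 cells, of HEK293T, in which lentivirus is commonly produced, in 4 cells, and of endothelium in 0 cells, which allows up to 0.431% of cells with such UMIs at this depth and sets no limit on the share of endothelial cells. PTPRC, CD3E, VWF, KDR and DCN, which define immune, endothelial and fibroblast cells, had no UMI. Other members of these lists were frequent. EGFL7 (endothelium) was found in 83.6% of the cells, FBLN1 (fibroblast) in 68.5%, CD68 (immune) in 53.6%, CD14 (immune) in 19.0% and THY1 (fibroblast) in 11.8%. Of the line's own list, EPCAM was found in 13.9% and CDH1 in 24.3%.

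A second gRNA was far more frequent with some non-targeting gRNAs than with others. CTRL00637 was called in 34 cells, but 21 of them (61.8%) carried another gRNA, and 13 of the 30 cells with CTRL00673 (43.3%) did so as well. In CTRL00616 this was 1 of 52 cells (1.92%). The cells with more than 1 called gRNA were left out of the guide groups, which is the only treatment of doublets that was made. Their partners were not spread evenly. CTRL00196 was found with PCGF5_gRNA1 in 16 cells, CTRL00689 with KAT2B_gRNA4 in 16 and CTRL00637 with HDAC2_gRNA3 in 15, and these were the most frequent of the 174 pairs of gRNAs seen together in the whole pool, 116 of which occurred in 1 cell. The next pair had 14 cells. CTRL00689 had a median of 6 UMIs in the cells it shared with KAT2B_gRNA4, which itself had 37, while it had a median of 48 in its own guide group. CTRL00196 (38 UMIs, partner 47) and CTRL00637 (44 UMIs, partner 59) were closer to their partners. The 16 cells with CTRL00196 were 51.6% of all cells called for PCGF5_gRNA1.

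The transcriptomes of these cells with a pair of gRNAs were compared after the pairs had been seen. In the 14 cells with CTRL00637 and HDAC2_gRNA3 alone, CEACAM6, a cell adhesion glycoprotein of secretory epithelia, had 233 UMIs in 12 cells (371 CPM, the gene's UMIs per 1000000 UMIs of the pooled cells), 116 of them in 1 cell. UPK1B, a uroplakin of the urothelial surface, had 90 UMIs in 13 of the 14 cells (143 CPM). The 13 cells with CTRL00637 only had 1 UMI of CEACAM6 and none of UPK1B, and the 18 cells with HDAC2_gRNA3 only had each gene in 2 cells (53.5 and 6.30 CPM). Against the cells with CTRL00637 only, 254 of 4132 tested genes (6.15%) were higher by 2-fold in the cells with both gRNAs and 158 (3.82%) were lower. Against all 696 non-targeting cells, the counts were 60 higher (1.5%) and 76 lower (1.89%) of 4013 genes. MAGEA6, a cancer-testis gene, had UMIs in 9 of these 14 cells and in 11 of the 16 cells with CTRL00196 and PCGF5_gRNA1 (31.7 CPM), beside 12.1% of all non-targeting cells. It had no UMI in the 16 cells with CTRL00689 and KAT2B_gRNA4, which allows up to 18.75% of such cells. Against all non-targeting cells, 32 of 4322 genes (0.74%) were higher and 23 (0.532%) lower in the cells with CTRL00196 and PCGF5_gRNA1, and 24 of 4289 (0.56%) were higher and 14 (0.326%) lower in those with CTRL00689 and KAT2B_gRNA4. Shares were larger against small references. Against the 12 cells with PCGF5_gRNA1 only, 324 of 4471 genes (7.25%) were higher and 129 (2.89%) lower in the cells with CTRL00196 and PCGF5_gRNA1. The shares against the 13 cells with CTRL00637 only are thus not comparable with those against 696 cells. In the 16 cells with CTRL00689 and KAT2B_gRNA4, the tetraspan membrane proteins TM4SF4 and TM4SF20 stood at 43.0 and 57.3 CPM, beside 7.63 and 11.1 CPM in all non-targeting cells. TM4SF20 was also high in the 14 cells with CTRL00637 and HDAC2_gRNA3 (42 UMIs in 8 cells, 66.9 CPM), where TM4SF4 stood at 6.38 CPM. The transcriptomes of the cells with these pairs of gRNAs were deeper (medians of 40350.5, 46728 and 40785.5 UMIs for the sets of CTRL00637, CTRL00196 and CTRL00689, beside 33581.5 in all non-targeting cells), and the part of depth in these differences was not tested.

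For the main comparison, UMIs of each gene were summed over a guide group, scaled to CPM and compared with the sum over all other non-targeting cells as a log2 ratio with 1 CPM added to both. A gene was tested in a group where it had at least 20 UMIs there or would have had at least 20 at the rate of the other cells, which left between 3094 genes (CTRL00018) and 10100 genes (CTRL00022) a group and 89819 gene-group pairs in all. Ratios below are plain ratios of CPM with exact 95% intervals, which cover counting error only and not the spread between cells. Since a gene could enter through its own high count, 5204 pairs were tested only because they were high in the group, and 167 of the pairs higher by 2-fold were of this kind. Most of the higher genes named below are among them, such as MYH11 in CTRL00080 (3.09 UMIs expected). For these, the interval and the rank over other groups rest on the count that selected the gene. Counts, medians and shares of gene lists below include members tested in this way, which raises the numbers above 0.

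Most genes did not differ by 2-fold between guide groups. Of the 89819 pairs, 208 (0.232%) were higher by at least 2-fold and 261 (0.291%) were lower, and they involved 388 of 10248 genes. The median log2 ratio over tested genes lay between -0.04 (CTRL00320) and 0.06 (CTRL00673). Among genes with at least 200 UMIs expected in the group, of which there were between 286 and 2706, none was higher by 2-fold in any group and 4 were lower. The lower ones, singled out after their values were seen, included KRT19 in CTRL00080, the histone gene HIST1H4C in CTRL00637 (519 beside 1153 CPM) and GPX2, a glutathione peroxidase, in CTRL00696 (152 beside 312 CPM). The standard deviation of their log2 ratios was lowest in CTRL00689 (0.105) and at most 0.191 in 14 groups, but was 0.260 in CTRL00080.

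Many of the higher values were past 2-fold only with their highest cell included. For each gene, the cell with most UMIs of the gene relative to its own total UMIs was left out of the group. This highest cell need not be the one with most UMIs of the gene. Without it, 71 of the 208 pairs (0.079% of all tested pairs) were still higher by 2-fold with UMIs in at least 3 cells, and 137 were not. In 40 of the 71 pairs, the gene had a UMI in at least 50% of the group's cells. DHRS2, a dehydrogenase of the short-chain family, was an extreme case of concentration in few cells. Of 136 UMIs in all non-targeting cells, 127 lay in 3 of the 81 cells of CTRL00196, and only 7 other cells had any. Its lower values in CTRL00022 (2 UMIs in 134 cells, 0.433 CPM beside 6.52 CPM) and CTRL00689 (2 UMIs in 118 cells, 0.471 beside 6.41 CPM) therefore stood against a reference set by those 3 cells.

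CTRL00080, with 33 cells, had the widest spread of log2 ratios among genes with at least 200 UMIs expected, and the most lower genes of the 15 groups. Of 5902 tested genes, 14 were higher (0.237%) and 53 lower (0.898%), and 5 stayed higher without the highest cell (0.0847%). MYH11, the myosin heavy chain of smooth muscle, had 66 UMIs in 21 of its cells (55.3 CPM), of which at most 9 were in 1 cell. All the other 663 non-targeting cells had 62 UMIs (2.59 CPM), a ratio of 21.4 (14.9 to 30.8). When every cell was thinned to 10000 UMIs, leaving out the 46 shallower cells, MYH11 had a UMI in 28.1% of the CTRL00080 cells and 2.75% of the others. No guide group of the 68 targeting gRNAs with at least 10 cells reached the MYH11 level of CTRL00080; the highest was HDAC1_gRNA3 with 24.1 CPM. CALB2, which encodes the calcium-binding protein calretinin, had 24 UMIs in 13 cells (20.1 CPM beside 5.59 CPM), 8 of them in 1 cell, and its share of thinned cells was 6.25% beside 5.34%.

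Among the lower genes of CTRL00080, POGZ, a zinc finger protein of heterochromatin, had 6 UMIs in 6 cells (5.03 CPM), where 27.2 UMIs would have matched the other cells (22.8 CPM, ratio 0.220, 0.0805 to 0.483). After thinning it was found in 3.12% of these cells and 21.8% of the others, and all 68 targeting groups lay above it. Targets of p53, the DNA damage-responsive tumour suppressor, were low as a list: 18 of 19 tested members lay below 0, 2 were lower by 2-fold and none higher, and the median log2 ratio was -0.47, beside 0.01 over all tested genes of the group. CDKN1A, the cyclin-dependent kinase inhibitor p21, had 39 UMIs in 13 cells (32.7 CPM beside 108 CPM, ratio 0.303, 0.215 to 0.415), and MDM2, which marks p53 for degradation, had 30 UMIs in 14 cells (25.2 beside 61.2 CPM). The summed list stood at a median of 2077 CPM per cell in CTRL00080 and 2910 CPM in the other non-targeting cells. The G2/M genes of the same group went the other way, with 50 of 53 above 0 and a median log2 ratio of 0.41, none of them past 2-fold. KRT19, a simple epithelial keratin (257 beside 539 CPM), C3, the central complement component (8.38 beside 22.6 CPM), and VTN, the adhesive plasma protein vitronectin (5.87 beside 21.7 CPM), were also lower by 2-fold.

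MYH11 joined CTRL00080 to CTRL00405, a group of 76 cells. There it had 45 UMIs in 24 cells (17.9 CPM, ratio to the other cells 4.90, 3.33 to 7.12), with at most 4 in 1 cell, and a share of thinned cells of 15.2% beside 2.74%. The next group was CTRL00689 with 10 UMIs in 7 cells (2.36 CPM), and 6 groups had none. CTRL00022, with 134 cells, had 1 UMI (0.217 beside 6.18 CPM, ratio 0.0350, 0.000880 to 0.199). Of the 127 UMIs in the cells it was compared with, 66 lay in CTRL00080 and 45 in CTRL00405. Its low value therefore stood against a reference set mostly by those groups. In GENCODE 44 on GRCh38, MYH11 lies on the minus strand at chr16:15703135-15857028, and its end overlaps NDE1, which acts with dynein at the centrosome, on the plus strand at chr16:15643267-15734691. NDE1 was higher in CTRL00080 too (52 UMIs in 20 cells, 43.6 CPM), whereas CTRL00405 had it at 20.3 CPM, log2 ratio 0.33. FES, a cytoplasmic tyrosine kinase encoded at chr15:90883695-90895776, was highest in CTRL00080 (51.1 CPM, 24 of 33 cells), CTRL00018 (47.4 CPM, 11 of 15 cells) and CTRL00405 (34.3 CPM, 38 of 76 cells). The gel-forming mucin MUC5AC was likewise highest in CTRL00080 (36.9 CPM, 15 cells) and CTRL00405 (34.3 CPM, 19 cells). NDE1 and MUC5AC were singled out after their values had been seen.

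Within CTRL00405 the MYH11 transcripts marked a share of the cells. Of the 24 cells with a MYH11 UMI, 14 also had MUC5AC (58.3%), against 5 of the 52 cells without (9.62%). FXYD2, the gamma subunit of the sodium-potassium pump, was found in 11 of the 24 cells and 1 of the 52. Cells with a MYH11 UMI were deeper, with a median of 34023.5 UMIs against 27198.5. At 10000 UMIs per cell, only 10 of 66 cells still had a MYH11 UMI. MUC5AC was then found in 2 of these 10 and 8 of the other 56, and FXYD2 in 2 of the 10 and 6 of the 56. Neither association was detectable at that depth. In CTRL00080, at full depth, MUC5AC was found in 10 of 21 cells with MYH11 (47.6%) and 5 of 12 without (41.7%). FXYD2 went the other way there, in 5 of 21 cells with MYH11 (23.8%) and 4 of 12 without (33.3%). These pairs of genes were chosen after their values had been seen.

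In CTRL00405, 8 of 8439 genes were higher (0.0948%), 14 lower (0.166%), and 4 stayed higher without the highest cell (0.0474%). APOE, the apolipoprotein of lipid transport, came first, with 112 UMIs in 23 cells (44.7 CPM beside 8.12 CPM, ratio 5.50, 4.31 to 6.99), although 1 cell held 50 of them. Without that cell the log2 ratio went from 2.32 to 1.54, and after thinning APOE was found in 18.2% of these cells and 6.34% of the others. FES was higher by 2.16 times (1.68 to 2.74), and GMEB2, a factor that modulates glucocorticoid response elements, by 2.58 times (1.49 to 4.29, 20 UMIs in 16 cells). SPINK6, a serine protease inhibitor, had 1 UMI in CTRL00405 against 310 in the other cells (ratio 0.0291, 0.000735 to 0.164). CPS1, the first enzyme of the urea cycle, had 1 UMI against 189 (ratio 0.0478, 0.00120 to 0.269).

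CTRL00022, the largest group, had 8 higher (0.0792%) and 17 lower genes (0.168%) of 10100, and 4 (0.0396%) stayed higher without the highest cell as defined above. CXCL8, a chemokine that attracts neutrophils, had 77 UMIs in 24 of 134 cells (16.7 CPM beside 4.82 CPM, ratio 3.46, 2.53 to 4.71), 23 of them in 1 cell, and no targeting group was higher. After thinning it was found in 13.6% of these cells and 4.51% of the others. FILIP1, a partner of filamin, had 34 UMIs in 14 cells (ratio 4.09, 2.49 to 6.69), FAM133A had 68 in 27 cells (3.32, 2.39 to 4.60), and FGB, the fibrinogen beta chain, had 36 in 15 cells (3.41, 2.14 to 5.37). The largest count in 1 cell was 12 UMIs for FILIP1, 11 for FAM133A and 11 for FGB. None of the 4 was seen in more than 27 of the 134 cells. The chemokine and cytokine list as a whole had 11 of 13 tested members above 0 and a median of 0.37, beside -0.0034 over all genes of the group, with 1 member (CXCL8) higher by 2-fold and 1 lower. The lower one was IL11, a cytokine of the interleukin 6 family, with 56 UMIs in 28 cells (12.1 beside 30.97 CPM), which is named after its value was seen.

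CTRL00689, with 118 cells, differed least. It had 3 higher (0.0301%) and 4 lower genes (0.0402%) of 9960, and none stayed higher without the highest cell (0%). Beside DHRS2, ERI2, an exoribonuclease, was its lowest gene, with 8 UMIs in 8 cells (1.89 beside 5.21 CPM, ratio 0.362, 0.152 to 0.738).

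CTRL00196, with 81 cells, had 22 higher (0.241%) and 13 lower genes (0.142%) of 9146, and 11 stayed higher (0.12%). This was the most of any group by count, but the share was larger in CTRL00275 (0.273%), CTRL00673 (0.224%) and CTRL00018 (0.194%). FXYD2 had 114 UMIs in 17 cells (35.9 beside 9.78 CPM, ratio 3.67, 2.90 to 4.63), and CEACAM6 had 95 UMIs in 8 cells (29.9 beside 8.60 CPM, 3.48, 2.69 to 4.48). The highest cell held 16 UMIs of FXYD2 and 27 of CEACAM6, so CEACAM6 was the more concentrated of the pair. EDN2, the vasoactive peptide endothelin 2, had 27 UMIs in 13 cells, at most 6 in 1 cell (4.56, 2.70 to 7.60), and COL1A1, the main fibrillar collagen chain, had 25 UMIs in 20 cells (3.27, 1.95 to 5.35). After thinning, COL1A1 was found in 9.21% of these cells and 2.09% of the others. COL1A1 is also on the list of fibroblast markers, of which COL1A2 and DCN had no UMI in any non-targeting cell, and that list summed to 47.9 CPM in CTRL00196 beside 50.8 CPM in the others. The HEK293T markers summed to 46.0 beside 21.4 CPM, the highest of the 15 groups, and all 3 tested members lay above 0. NEFL, the light neurofilament, had 71 UMIs in 32 cells (22.4 beside 8.64 CPM), and CHGA, the secretory granule protein chromogranin A, had 22 UMIs in 2 cells, 21 of them in 1 cell. CHGA was tested there only through that count (1.15 UMIs expected), so its direction was fixed in advance. PHOX2A and INSM1 of that list were at 0 in all non-targeting cells. The part of other cell types in the values of CTRL00196 was not tested. APOE was lower (9 UMIs in 7 cells, 2.84 beside 13.1 CPM, 0.217, 0.0983 to 0.418), as was PIK3C3, the class III phosphatidylinositol kinase (9 UMIs, 0.330, 0.149 to 0.640).

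CTRL00616, with 51 cells, had 10 higher (0.133%) and 20 lower genes (0.266%) of 7524, and 4 stayed higher (0.0532%). TSPAN8, a tetraspanin of secretory epithelia, had 53 UMIs in 23 cells and at most 5 in 1 cell (27.7 beside 6.11 CPM, ratio 4.54, 3.24 to 6.26), and after thinning it was found in 22.4% of these cells and 4.99% of the others. MT1A, a metal-binding metallothionein, had 34 UMIs in 28 cells (2.49, 1.67 to 3.62). APBB1IP, an effector of Rap1 in integrin activation, had 47 UMIs in 28 cells (2.15, 1.54 to 2.94), and HHIP-AS1, an antisense transcript at HHIP, had 26 in 18 cells (2.80, 1.75 to 4.31). These genes were each spread over at least 18 of the 51 cells. HIST1H1B, a linker histone of replicating cells, had 1 UMI against 270 in the other cells (0.0450, 0.00114 to 0.253), and CEACAM6 had 2 against 282 (0.0862, 0.0104 to 0.314).

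Among the smaller groups, CTRL00320 had 5 higher (0.0836%) and 24 lower genes (0.401%) of 5982, and none stayed higher (0%). Its lowest gene was CA8, a catalytically inactive carbonic anhydrase relative (6 UMIs, 4.85 beside 16.3 CPM). CTRL00484, the shallowest group, had 8 higher (0.165%) and 11 lower genes (0.227%) of 4843. Only POU2F1, the octamer-binding factor OCT1, stayed higher (0.0206%), with 29 UMIs in 20 of 30 cells (33.4 beside 15.2 CPM, ratio 2.21, 1.46 to 3.22). None of the 68 targeting groups reached this level, but in CTRL00484 the gene was tested only through its own high count (13.2 UMIs expected). SAAL1 was lower there (8 UMIs, 9.22 beside 25.1 CPM). The SAAL1 ratio was 0.367 (0.158 to 0.728).

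CTRL00545, with 27 cells, had 16 higher (0.294%) and 5 lower genes (0.0918%) of 5448, and 6 stayed higher (0.11%). The gut peptide hormone CCK had 32 UMIs in 7 cells, 19 of them in 1 cell (31.3 beside 5.80 CPM, ratio 5.40, 3.56 to 7.97). CPS1 had 23 UMIs in 7 cells (22.5 beside 6.92 CPM, 3.25, 2.01 to 5.05). Both were thus found in the same number of cells, but the CPS1 UMIs were more evenly spread, with at most 6 in 1 cell. ARID4A, a chromatin-binding retinoblastoma partner, was lower (9 UMIs, 8.81 beside 23.1 CPM).

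CTRL00087, with 18 cells, had 10 higher and 10 lower genes of 4217 (0.237% each), of which 5 of the higher ones stayed (0.119%). CEACAM6 had 37 UMIs in 5 cells (52.1 beside 10.1 CPM, ratio 5.16, 3.55 to 7.31) and SPINK6 had 30 UMIs in 5 cells (42.3 beside 11.5 CPM, 3.68, 2.43 to 5.37). The cells were different ones: none of the 5 cells with CEACAM6 had a UMI of SPINK6, a count chosen after the values had been seen. HNRNPH2, a splicing regulator, was the lowest gene (7 UMIs, 9.86 beside 28.9 CPM).

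CTRL00673, with 17 cells, had 31 higher (0.772%) and 14 lower genes (0.349%) of 4017, and 9 stayed higher (0.224%). UPK1B had 45 UMIs in 4 cells, 28 of them in 1 (70.1 beside 9.46 CPM), and HIST1H1B had 34 UMIs in 6 cells (52.98 beside 9.67 CPM, ratio 5.48, 3.71 to 7.87). CD70, a ligand of the tumour necrosis factor family, was otherwise frequent in A549, with UMIs in 66.7% of the other cells, but had 8 UMIs in 4 cells of CTRL00673 (12.5 beside 71.4 CPM, 0.175, 0.0753 to 0.345). After thinning, CD70 was found in 12.5% of these cells and 41.8% of the others, and all 68 targeting groups lay above it. The neutrophil chemokine CXCL5 was lower as well (7.79 beside 40.0 CPM).

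CTRL00696, with 16 cells, had 19 higher (0.447%) and 10 lower genes (0.236%) of 4246, and 4 stayed higher (0.0942%). NEFL had 23 UMIs in 7 cells (33.0 beside 9.73 CPM, ratio 3.39, 2.11 to 5.20), and ANKRD30A had 24 UMIs in 9 cells (34.4 beside 10.3 CPM, 3.32, 2.09 to 5.06). The HEK293T markers summed to 40.1 beside 24.0 CPM, and their part in the result was not tested. NEFL was the only one of them tested here, and only through its own high count (6.79 UMIs expected). NEFL had a UMI in 19.0% of all non-targeting cells. CPLX2, a regulator of vesicle fusion, had 19 UMIs in 4 cells (27.2 beside 96.8 CPM).

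CTRL00018, with 15 cells, had 22 higher and 22 lower genes of 3094 (0.711% each), and 6 stayed higher (0.194%). VCAN, the matrix proteoglycan versican, had 24 UMIs in 10 cells (49.4 beside 11.03 CPM, ratio 4.48, 2.82 to 6.82), and the long non-coding RNA MEG3 had 26 in 10 cells (53.6 beside 18.4 CPM, 2.92, 1.88 to 4.33). Both were found in 10 of 15 cells. CYP1B1, a cytochrome P450 of oestrogen and hydrocarbon metabolism, had 5 UMIs in 2 cells (10.3 beside 49.2 CPM, 0.209, 0.0679 to 0.490).

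CTRL00275, also with 15 cells, had 24 higher (0.729%) and 18 lower genes (0.547%) of 3292, and 9 stayed higher (0.273%). C21orf58 had 31 UMIs in 9 cells (60.9 beside 17.9 CPM, ratio 3.41, 2.29 to 4.92), and LXN, the carboxypeptidase inhibitor latexin, had 64 in 10 cells (126 beside 44.5 CPM). AGR2, a disulphide isomerase that folds mucins, had 18 UMIs in 7 cells (35.4 beside 148 CPM, 0.238, 0.141 to 0.377), below all 68 targeting groups. AGR2 is on the list of markers of the line itself.

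CTRL00637, the smallest group with 13 cells, had 8 higher (0.222%) and 26 lower genes (0.72%) of 3609, and 3 stayed higher (0.0831%). NXN, the redox protein nucleoredoxin (79.8 beside 33.8 CPM), and KHDC4, an RNA-binding splicing factor (73.0 beside 31.7 CPM), each had UMIs in 11 of the 13 cells. AREG, the growth factor amphiregulin, was lower (11 UMIs in 4 cells, 18.7 beside 64.4 CPM, ratio 0.290, 0.144 to 0.520).

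Some of the genes past 2-fold recurred between guide groups. Of the 388 genes past 2-fold in either direction, 333 were so in 1 group, 38 in 2 groups and 17 in 3 or more. SPINK6 was past 2-fold in 5 of the 8 groups in which it was tested, higher in CTRL00018 (34 UMIs in 2 of 15 cells, 70.0 CPM), CTRL00087 and CTRL00320 (50 UMIs in 3 of 33 cells, 40.4 CPM) and lower in CTRL00405 and CTRL00616 (7 UMIs). It was absent from the counts of CTRL00275, CTRL00484 and CTRL00696. Over all non-targeting cells it had 311 UMIs in 47 cells (6.75%). CEACAM6 (59 cells), FXYD2 (83 cells), APOE (109 cells) and TSPAN8 (95 cells) were past 2-fold in 4 groups each and were likewise found in fewer than 16% of the cells. FXYD2 was highest in CTRL00673 (49.9 CPM, 6 of 17 cells), CTRL00080 (43.6 CPM, 9 of 33 cells) and CTRL00196, and it had no UMI in CTRL00018, CTRL00275 and CTRL00320. TSPAN8 ran from 0 in 4 groups to 27.7 CPM in CTRL00616.

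DHRS2 (10 cells) and MYH11 (59 cells), each past 2-fold in 3 groups, were described above. HIST1H1D, TAGLN and PDK4 were found in more cells, between 203 and 269. HIST1H1D, a further linker histone, was tested in all 15 groups and ran from 13.6 CPM (CTRL00637, 3 of 13 cells) to 176 CPM (CTRL00673, 113 UMIs in 9 of 17 cells). TAGLN, the actin-binding transgelin, was higher in CTRL00616 (78.9 CPM, 23 of 51 cells) and CTRL00696 (81.7 CPM, 6 of 16 cells) and lower in CTRL00673, CTRL00275 and CTRL00320 (14.0, 15.7 and 16.2 CPM), although in CTRL00275 it was below the minimum for a test. PDK4, a kinase that restrains pyruvate dehydrogenase, was higher in CTRL00087 (47.9 CPM), CTRL00673 (42.1 CPM) and CTRL00484 (38.0 CPM) and lower in CTRL00320 (8.09 CPM). Over the 68 targeting groups, CEACAM6 ran from 0 to 228 CPM and SPINK6 from 0 to 185 CPM, beyond their highest non-targeting groups. For MYH11 (0 to 24.1 CPM, median 0), HIST1H1D (5.19 to 88.2 CPM) and PDK4 (2.64 to 45.3 CPM), the highest non-targeting group lay above all targeting groups.

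Gene lists mostly lay close to 0. Ribosomal protein genes had medians between -0.04 and 0.04 over the 15 groups, and 1 of 1170 tested pairs was past 2-fold (0.0855%). The 13 mitochondrial mRNAs had medians between -0.25 (CTRL00696) and 0.16 (CTRL00484), with none past 2-fold. Heat shock genes, aldo-keto reductases and aldehyde dehydrogenases had none past 2-fold either, of 208, 108 and 141 pairs. By contrast, 17 of 75 pairs of secretory epithelial genes (22.7%), 9 of 71 pairs of hepatic-type secreted genes (12.7%) and 9 of 115 pairs of chemokines and cytokines (7.83%) were past 2-fold, beside 0.232% higher and 0.291% lower over all tested pairs. Of the HEK293T markers, 4 of 11 pairs (36.4%) were, 3 of them NEFL, which was lower in CTRL00022 (17 UMIs in 15 cells, 3.68 beside 11.9 CPM). CHGA in CTRL00196 and NEFL in CTRL00696 were counted there only through their own high counts. These lists were chosen with such genes in view, so their shares are a description.

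The cell cycle lists varied most among small groups. In CTRL00018, all 32 tested G2/M genes lay below 0 and 8 were lower by 2-fold, beside 0.711% of all its tested genes. Their median was -0.61, beside -0.01 over all its genes. The mitotic kinases PLK1 (16.5 beside 69.6 CPM, 4 of 15 cells) and AURKA (24.7 beside 89.9 CPM, 5 cells) were the lowest. Per cell, the summed G2/M level had a median of 2633 CPM in CTRL00018 and 2486 CPM in the others, and its highest cell stood at 6731 CPM, against 19016 CPM elsewhere, so the pooled level was lower while the median cell was not. In CTRL00673, all 22 tested S phase genes lay above 0 (median 0.55), and in CTRL00275 16 of 17 did (median 0.53). Their median summed S phase levels per cell were 1727 and 1822 CPM, beside 1109 CPM in the other cells of either comparison. S phase genes could be tested through their own high counts alone, which raises the numbers above 0 and the median log2 ratios. In CTRL00696, a larger pool (698009 UMIs) than CTRL00673 (641770 UMIs), 16 S phase genes were tested. In CTRL00320, 2 of 27 S phase genes lay above 0 (median -0.34), but the median summed level per cell was 1186 CPM, beside 1119 CPM in the others.

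Interferon-stimulated genes were higher by 2-fold in 6 of 127 tested pairs (4.72%), beside 0.232% over all tested pairs. In CTRL00545, 4 of 8 tested interferon-stimulated genes were higher by 2-fold, beside 0.294% of all its tested genes. Their median was 1.10, beside 0.02 over all genes. IFI6, HERC5 and OAS1 (7.37, 14.8 and 13.9 UMIs expected) were tested there only through their own high counts. This raises the shares and the median. ISG15, a ubiquitin-like antiviral protein, had 139 UMIs in 11 cells, and 121 of them lay in 1 cell. That cell had 9107 CPM of the list, the next highest of the group 1211 CPM. Without it none of the 8 genes was higher by 2-fold and the median was 0.11, with ISG15 at a log2 ratio of -0.85. CTRL00673 and CTRL00689 also held 1 cell each above the others, at 4127 and 3197 CPM of the list. The other 2 pairs, named after their values were seen, were in these groups: ISG15 in CTRL00673 (95 UMIs, 85 in 1 cell) and MX1, an antiviral GTPase, in CTRL00689 (23 UMIs, 18 in 1 cell). MX1 was also tested only through its own high count (7.91 UMIs expected).

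The genes targeted elsewhere in the pool were mostly within 2-fold across the guide groups where they could be tested. Of 25 targets, 9 had at least 20 UMIs expected in each of the 15 groups. RPL18, of the large ribosomal subunit, kept within log2 ratios of -0.10 and 0.06, TRMT112, an activator of methyltransferases, within -0.16 and 0.16, and TRIM28, a co-repressor of zinc finger proteins, within -0.23 and 0.25. In these highly expressed genes the groups differed by less than 2-fold. HDAC1 spread from -0.53 (CTRL00637) to 0.27 (CTRL00673), and ATAD2 from -0.48 (CTRL00320) to 0.85 (CTRL00673). HELLS, a chromatin remodeller of replicating cells, spread from -1.07 (CTRL00320) to 1.00 (CTRL00673), and HAT1, a histone acetyltransferase, was at 1.15 in CTRL00673 (73.2 beside 32.4 CPM). Of the 25 targets, these 2 were past 2-fold in a group where they were tested. By pairs, 2 of 237 were higher and 1 lower (1.27% past 2-fold), beside 0.232% higher and 0.291% lower over all tested pairs. Over the 5 groups with most cells, HELLS kept within -0.10 and 0.20 and HDAC1 within -0.27 and 0.09.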

How the data were processed

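The A549 pool was measured in a transcriptome and a gRNA library. The authors deposited raw UMI counts of 33538 genes and 120 gRNAs in 5744 barcodes. Per the file headers and labels these came from Cell Ranger 3.1.0 on GRCh38, and its cell call was kept. gRNAs were called at more than 3 UMIs and cells with 1 called gRNA kept. Pooled counts were scaled to CPM and compared with those of all other non-targeting cells (1 CPM added, at least 20 UMIs observed or expected, 2-fold), in Python 3.11.15 with NumPy 2.4.6, SciPy 1.17.1, pandas 2.3.3 and scikit-learn 1.9.0. Intervals are exact 95% intervals, conditional binomial for ratios and Clopper-Pearson for shares. For shares of cells, counts were thinned to 10000 UMIs (seed 11).

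Members, gene lists and rules were chosen with earlier results of these data known. Named were the 4 highest genes still past 2-fold without the highest cell and the 2 lowest with 20 UMIs expected in the 5 largest groups, 2 and 1 in the others, the 10 genes past 2-fold in most groups, and up to 4 members a list. Genes from which sex can be read were counted but not named (2 lower calls in CTRL00080, 1 in CTRL00087). Positions are from GENCODE 44, which held all 47 named genes. The comparison was tested on simulated counts. Spacer sequences were not used here.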

Additional observations from a re-analysis of the deposited data

How the results depend on the processing

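The 15 guide groups with at least 10 cells remained 15 under the 4 alternative gRNA or cell rules (a Gaussian mixture, more than 10 UMIs, 80% of the gRNA UMIs, cells with at least 10000 UMIs), with between 650 and 686 cells, and the 3 counts of gene-group pairs moved by less than 1.5 times. They depended on how low counts were treated. With 10 CPM added, 54 pairs were higher, 60 lower and 16 higher without the highest cell. With a minimum of 50 UMIs these were 45, 45 and 18, and with a minimum of 10 UMIs 738, 1037 and 254. Where 20 UMIs had to be expected from the other cells, 41 pairs were higher and 17 higher without the highest cell. With the mean over cells of CPM, 449 were lower, and 310 were higher, of which 135 were among the 208. The log2 ratios of the 53 named gene-group pairs kept their sign under all 10 alternatives, and 497 of the 530 recomputed values were still past 2-fold. Of the 33 that were not, 26 came from adding 10 CPM. The others were POU2F1 in CTRL00484 (0.97 with 80% of the gRNA UMIs), ERI2 in CTRL00689 (-0.86), FES in CTRL00405 (0.96) and APBB1IP in CTRL00616 (0.97) with the other groups weighted equally, and FGB in CTRL00022 (0.95), PIK3C3 in CTRL00196 (-0.89) and APBB1IP in CTRL00616 (0.86) with the mean over cells. The causes were not tested. Leaving out the interferon-high cell of CTRL00545, which took its count from 4 to 0, was chosen after seeing the data. No paired analysis was possible because there was 1 pool without replicate numbers.

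Guide groups of 13 to 18 cells had pools of 485381 to 710023 UMIs, so that only genes of at least about 20 UMIs there could be compared, and smaller differences were not detectable at this depth. PCR copies were collapsed to UMIs, but all cells come from 1 pool, so intervals understate the spread that other cultures would show.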

Other observations

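Some list members outside the leading genes were past 2-fold in single groups. CTRL00616 had MVK, of the mevalonate pathway, at 5.75 beside 12.8 CPM. In CTRL00696, PHGDH, the entry enzyme of serine synthesis, stood at 14.3 beside 37.0 CPM. GPX2 was also lower in CTRL00275 (147 beside 311 CPM). CEBPB, a transcription factor of the stress response, was lower in CTRL00673 (40.5 beside 87.2 CPM) and CTRL00087 (42.3 beside 87.3 CPM). KLF6, an immediate early transcription factor, was at 25.5 beside 62.4 CPM in CTRL00637, where the immediate early list had its lowest median, -0.51. SLC2A3, a glucose transporter, was at 4.39 beside 11.8 CPM in CTRL00405. GCLC, which makes the precursor of glutathione, was at 18.5 beside 43.9 CPM in CTRL00018.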
